A study of Mus musculus with 6 samples.

Results

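Macrophages were followed through 10 genes in cultured mouse cells from the nucleus pulposus, which is the gel-like centre of a disc between vertebrae. The genes are Ptprc, Csf1r, Adgre1, Cd68, Itgam, Lyz2, Cd14, Mrc1, Cx3cr1 and Tyrobp, chosen by symbol as identity and receptor genes of the macrophage. They are 10 of the 46095 gene symbols of the count table, and all 10 passed the filter on low counts that left 16061 tested genes. The tissue came from mice aged 8 weeks, and the cells were used at passage 2. RNA was sequenced from 3 Chsy3 genotypes with 2 libraries each, labelled Chsy3KO (here knockout), Chsy3 heterozygous and wild type, and every library is labelled male. The sources used here do not give the altered part of Chsy3 or the strain. The labels do not say whether libraries of 1 genotype stem from different animals or cultures, so p-values reflect only how far these libraries vary, which may be technical. Bulk RNA cannot tell fewer cells of a type apart from less RNA per cell.

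Macrophages are phagocytes of the myeloid lineage. Their survival depends on the receptor encoded by Csf1r, which binds the growth factors encoded by Csf1 and Il34, and the transcription factor PU.1, encoded by Spi1, drives much of their gene programme. The healthy nucleus pulposus has few blood vessels and few leukocytes, and macrophages are known to enter the disc when it degenerates. Chsy3 encodes a synthase that lengthens chondroitin sulfate chains, the sugar chains of disc proteoglycans.

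Libraries held 29622117 to 33899611 counts. Chsy3 had 118 and 76 counts in knockout, 167 and 197 counts in heterozygous and 284 and 284 counts in wild type, in the order of the labels. The male label did not account for the sex-linked genes in any of the 3 genotypes. Ddx3y, a Y-linked gene, was at 0 counts in each heterozygous library, which allows a level of up to 0.104 and 0.0944 CPM (counts per 1000000, with library totals scaled by TMM factors; 3 counts at most, for counting error only), while it reached 30.3 and 31.7 CPM in knockout and 27.3 and 21.5 CPM in wild type. Sex and genotype cannot be told apart in any comparison with the heterozygous libraries. Xist, the RNA of the inactive X chromosome, was present in every library, at 651 and 654 CPM in knockout, 1080 and 1072 CPM in heterozygous and 664 and 654 CPM in wild type. The knockout and wild-type libraries thus held Y-linked RNA and Xist together, which a male label alone does not account for. Their make-up by sex is not known here, and its part in knockout against wild type was not tested. Defining genes of the labelled tissue were scarce: of 12 nucleus pulposus and notochord markers 4 had 0 counts in every library (T, Shh, Foxa2 and Noto), 5 passed the filter on low counts, and the list summed to 56.7 to 74.8 CPM. Of those 5, in knockout against wild type 1 was higher and 2 were lower, and in heterozygous against wild type 2 were higher (Sox9 at 1.85 and Car3 at 3.60 log2) and 3 lower (Krt19 at -4.39, Col2a1 at -2.01 and Cd24a at -1.05 log2). The part of these shifts in the levels of the macrophage genes was not tested.

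All 10 identity genes were expressed in every library. Scaled to the length of their exons, levels ran in wild type from 5480 CPM per kilobase for Lyz2, which encodes the lysozyme of phagocytes, to 9.14 CPM per kilobase for Ptprc. Between them lay Cd68 at 485, Tyrobp at 302, Csf1r at 161, Cd14 at 157, Adgre1 at 124, Mrc1 at 118, Itgam at 110.2 and Cx3cr1 at 30.9 CPM per kilobase. These are means of 2 libraries on the length-scaled level, with exons merged over all annotated transcripts, which lowers the value of a gene with many transcripts such as Ptprc. In knockout Cx3cr1 was last of the 10, at 6.51 CPM per kilobase, and in heterozygous as well, at 7.25 CPM per kilobase.

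Taken by genotype, 7 of the 10 genes rose in knockout against wild type (Ptprc, Csf1r, Cd68, Itgam, Cd14, Mrc1 and Tyrobp), Cx3cr1 fell, and Adgre1 and Lyz2 did not pass the test (quasi-likelihood test in edgeR, with p adjusted by Benjamini-Hochberg over all tested genes and a threshold of 0.05). Of all tested genes, 19.2% rose and 18.9% fell in that comparison, 38.0% in all. In heterozygous against wild type 7 of the 10 rose as well (Ptprc, Adgre1, Cd68, Itgam, Lyz2, Cd14 and Mrc1), Cx3cr1 fell, and Csf1r and Tyrobp did not pass, where 19.2% of all tested genes rose and 19.7% fell, 38.9% in all. In knockout against heterozygous 6 rose (Ptprc, Csf1r, Cd68, Itgam, Cd14 and Tyrobp), Adgre1 and Lyz2 fell, and Mrc1 and Cx3cr1 did not pass, where 19.1% of all tested genes rose and 17.9% fell, 37.1% in all. The median log2 fold change of the 10 genes was 0.38, 0.28 and 0.19 in these comparisons in turn, while that of all tested genes lay between -0.0031 and 0.0116. Each pair of these comparisons shares the libraries of a genotype.

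**Figure D1:**
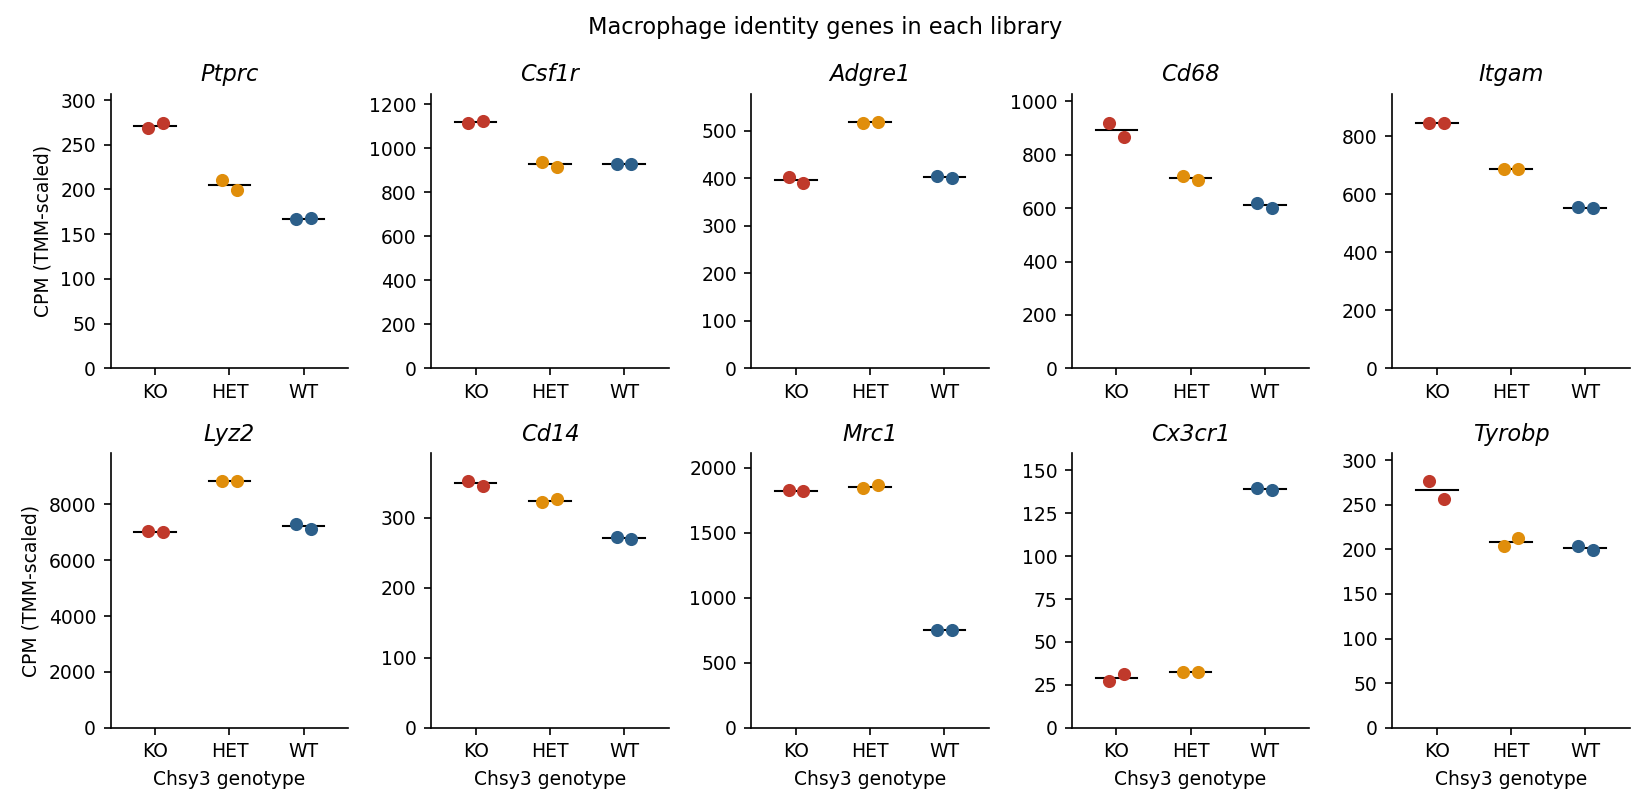
Level of each of the 10 macrophage identity genes in every library (vertical axis, CPM with TMM-scaled library totals, starting at 0) by Chsy3 genotype (KO, knockout; HET, heterozygous; WT, wild type). Points are libraries and black lines are means of 2 libraries. Mrc1 lies at 1821 to 1864 CPM in the KO and HET libraries and at 750.1 and 751 CPM in WT, while Cx3cr1 lies at 27.2 to 32.7 CPM in KO and HET and at 139.9 and 139 CPM in WT.

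Mrc1 and Cx3cr1 changed most, in opposite directions, and did so in both mutant genotypes. Mrc1 (chr2:14229392-14332057, GRCm38, plus strand) encodes the mannose receptor CD206, an endocytic receptor for glycans that is often used as a mark of tissue-resident or alternatively activated macrophages. It stood at 1826 and 1821 CPM in knockout, 1841 and 1864 CPM in heterozygous and 750.1 and 751 CPM in wild type. Both mutant genotypes were thus above wild type in every library. The increase was 2.43-fold in knockout (log2 1.28 ± 0.02, SE; edgeR adjusted p = 1.29e-38) and 2.47-fold in heterozygous (log2 1.30 ± 0.02; edgeR adjusted p = 5.14e-39). Knockout against heterozygous gave -0.02 ± 0.02 log2, which did not pass (edgeR adjusted p = 0.403). In knockout against wild type 96.6% of all tested genes had a smaller log2 fold change than Mrc1.

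Cx3cr1 (chr9:119901616-120069879, minus strand) encodes the receptor of the chemokine fractalkine, which is high on patrolling monocytes and on several resident macrophages, microglia among them. It had 27.2 and 31.4 CPM in knockout, 32.7 and 32.6 CPM in heterozygous and 139.9 and 139 CPM in wild type. All 4 mutant libraries were below both wild-type libraries. Its log2 fold change was -2.25 ± 0.06 in knockout (SE; edgeR adjusted p = 2.29e-30), or 4.75-fold lower, and -2.09 ± 0.06 in heterozygous (edgeR adjusted p = 2.96e-29), or 4.27-fold lower. Knockout against heterozygous gave -0.15 ± 0.07 (edgeR adjusted p = 0.0684), and without knockout library 2 it passed at -0.26 (adjusted p = 0.00787; range over 13 alternatives 0.00787 to 0.658). In knockout against wild type 1.49% of all tested genes had a smaller log2 fold change. The locus overlaps other genes on both strands, Wdr48 and Gorasp1 among them, and the sources used here do not say whether counting used strand. Wdr48 and Gorasp1 had 1901 to 2354 and 841 to 1045 counts per library under their own names.

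Counts taken relative to Csf1r within a library do not depend on how libraries are scaled. For every 1000 counts of Csf1r there were 1638 and 1617 counts of Mrc1 in knockout, 1964 and 2034 in heterozygous and 807 and 809 in wild type. For Cx3cr1 there were 24.4 and 27.9 counts in knockout, 34.9 and 35.5 in heterozygous and 151 and 149 in wild type. The ordering of wild type against both mutant genotypes was therefore the same on this scale for Mrc1 and for Cx3cr1.

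Promoter sequences are shown for Mrc1 and Cx3cr1, which changed most, and for Itgam, which differed between all 3 genotypes as described next. Each runs from 250 bases before to 50 bases after the RefSeq start (GRCm38.p6), 5′ to 3′ on the strand of the gene. The windows are chr2:14229164-14229463 for Mrc1, chr9:120068247-120068546 for Cx3cr1 and chr7:128062390-128062689 for Itgam. Capitals mark GAGGAA, the core of sites bound by PU.1, or TTCCTC, the same letters on the other strand.
Mrc1: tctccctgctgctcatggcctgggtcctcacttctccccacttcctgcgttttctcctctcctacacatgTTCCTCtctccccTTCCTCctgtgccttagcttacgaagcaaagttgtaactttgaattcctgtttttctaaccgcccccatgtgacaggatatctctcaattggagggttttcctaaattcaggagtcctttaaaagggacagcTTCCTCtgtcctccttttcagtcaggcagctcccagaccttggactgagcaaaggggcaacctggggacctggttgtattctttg
Cx3cr1: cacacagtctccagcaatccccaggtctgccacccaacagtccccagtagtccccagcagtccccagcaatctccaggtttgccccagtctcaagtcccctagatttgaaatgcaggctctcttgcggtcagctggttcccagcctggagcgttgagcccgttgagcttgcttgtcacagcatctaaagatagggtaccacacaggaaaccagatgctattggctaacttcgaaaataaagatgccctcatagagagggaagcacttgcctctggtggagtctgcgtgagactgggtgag
Itgam: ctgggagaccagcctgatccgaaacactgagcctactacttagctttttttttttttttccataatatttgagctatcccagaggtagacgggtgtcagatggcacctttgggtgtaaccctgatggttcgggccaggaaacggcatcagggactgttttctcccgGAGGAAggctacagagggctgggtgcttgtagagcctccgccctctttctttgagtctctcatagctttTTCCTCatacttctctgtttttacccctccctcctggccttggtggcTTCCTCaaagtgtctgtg

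The Mrc1 window holds the motif at -180, -167 and -35 and the Itgam window at -84, -15 and 32, counted from the start at 0 to the first base of the match, while the Cx3cr1 window does not hold these letters. Windows of 6 of the 10 genes were counted (7 windows, with 2 for Ptprc). Those on chromosome 18, where Csf1r and Cd14 lie, were left out, and Adgre1 and Tyrobp had no window in the reference. Of the 7 windows 4 hold the motif on either strand, against 28.3% of 32851 windows of 300 bases over all genes. The 4 of 7 thus does not cover Csf1r and Cd14. TATAAA, the TATA box, on either strand and with no overlap with the other motif, was in 1 of the 7 windows, for Ptprc, against 13.6% of all windows. A match of letters is a description and does not show binding.

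Ptprc, Itgam, Cd68 and Cd14 were highest in knockout, lower in heterozygous and lowest in wild type, and every step of that order passed the test. Ptprc encodes CD45, the phosphatase found on all nucleated blood cells. Its levels were 268 and 274 CPM in knockout, 211 and 199.7 CPM in heterozygous and 167 and 168 CPM in wild type. No library of a genotype overlapped with another genotype. Ptprc was 1.62-fold higher in knockout than in wild type (log2 0.70 ± 0.03, SE; edgeR adjusted p = 4.9e-21), 1.22-fold above wild type in heterozygous (log2 0.29 ± 0.03; edgeR adjusted p = 2.84e-09) and 1.32-fold higher in knockout than in heterozygous (log2 0.40 ± 0.03; edgeR adjusted p = 2.69e-13).

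Itgam encodes CD11b, the integrin chain that pairs with the product of Itgb2 to form complement receptor 3. It had 846 and 846 CPM in knockout, 687 and 687 CPM in heterozygous and 555 and 553 CPM in wild type. Steps between genotypes were thus far wider than the gap between libraries of a genotype. The log2 fold change was 0.61 ± 0.02 in knockout and 0.31 ± 0.02 in heterozygous against wild type (SE; edgeR adjusted p = 6.15e-25 and 7.63e-15). Set against heterozygous, knockout was at 0.30 ± 0.02 (edgeR adjusted p = 1.88e-14).

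Cd68 encodes a glycoprotein of late endosomes and lysosomes that is abundant in macrophages and not restricted to them. Its levels were 920.1 and 867 CPM in knockout, 720.5 and 706 CPM in heterozygous and 619.8 and 601 CPM in wild type. The 3 genotypes did not overlap. In knockout it was 1.46-fold and in heterozygous 1.17-fold higher than in wild type (log2 0.55 ± 0.03 and 0.22 ± 0.03, SE; edgeR adjusted p = 7.15e-22 and 1.06e-09), and knockout was above heterozygous by 0.32 ± 0.03 log2 (edgeR adjusted p = 3.15e-14).

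Cd14 encodes the co-receptor that hands bacterial lipopolysaccharide to the complex of the Tlr4 and Ly96 products. Its levels were 352 and 345 CPM in knockout, 322 and 326 CPM in heterozygous and 272 and 269.7 CPM in wild type. The genotypes again did not overlap. The log2 fold change was 0.36 ± 0.03 in knockout and 0.26 ± 0.03 in heterozygous against wild type (SE; edgeR adjusted p = 5.55e-14 and 1.1e-09). Knockout against heterozygous was 0.10 ± 0.03 (edgeR adjusted p = 0.00361), and this call was lost without heterozygous library 1 (adjusted p = 0.0558; range over 13 alternatives 6.3e-06 to 0.0558).

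Csf1r and Tyrobp were higher in knockout than in both other genotypes, which did not differ by the test. Csf1r had 1115 and 1126 CPM in knockout, 938 and 917 CPM in heterozygous and 929 and 929 CPM in wild type. The heterozygous libraries lay on either side of the wild-type libraries. It was 1.21-fold higher in knockout than in wild type (log2 0.27 ± 0.02, SE; edgeR adjusted p = 5.51e-14) and than in heterozygous (log2 0.27 ± 0.02; edgeR adjusted p = 5.81e-14), while heterozygous against wild type gave -0.00267 ± 0.022 log2 (edgeR adjusted p = 0.945). Csf1r lies on chromosome 18, 1.56 Mb from Chsy3.

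Tyrobp encodes DAP12, the adaptor that passes on signals of receptors such as TREM2 through the kinase SYK. Its levels were 276 and 256 CPM in knockout, 204 and 213 CPM in heterozygous and 203 and 199.7 CPM in wild type. Both knockout libraries were above the other 4. The log2 fold change was 0.40 ± 0.04 against wild type (SE; edgeR adjusted p = 6.9e-13) and 0.35 ± 0.04 against heterozygous (edgeR adjusted p = 4.19e-11), and that of heterozygous against wild type was 0.05 ± 0.04 (edgeR adjusted p = 0.291).

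Adgre1 and Lyz2 showed another order, with heterozygous above both other genotypes. Adgre1 encodes F4/80, the surface receptor used to stain mouse macrophages. It had 402 and 389.8 CPM in knockout, 516 and 519 CPM in heterozygous and 404 and 399 CPM in wild type. Knockout and wild type overlapped, and heterozygous stood apart. Heterozygous was 1.29-fold above wild type (log2 0.36 ± 0.03, SE; edgeR adjusted p = 3.2e-15), knockout changed by -0.39 ± 0.03 log2 against heterozygous (edgeR adjusted p = 6.08e-16), and knockout against wild type gave -0.02 ± 0.03 (edgeR adjusted p = 0.593).

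Lyz2 had 7039 and 7010 CPM in knockout, 8845 and 8845 CPM in heterozygous and 7300 and 7123 CPM in wild type. Its heterozygous libraries were above all others, and the knockout libraries lay just below the wild-type libraries. The log2 fold change was 0.29 ± 0.02 in heterozygous against wild type (SE; edgeR adjusted p = 9.56e-20). Knockout set against heterozygous gave -0.33 ± 0.02 (edgeR adjusted p = 1.84e-21). Knockout against wild type was -0.04 ± 0.02 (edgeR adjusted p = 0.0541), a call that changed with the setting: DESeq2, RLE size factors and a fit without wild-type library 2 each passed it, at adjusted p = 0.0425, 0.0464 and 0.0198 (range over 13 alternatives 0.0198 to 0.535). The neighbouring paralog Lyz1, close in sequence, had 38 to 77 counts per library under its own name, and how reads that match both copies were counted is not known here.

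**Figure D2:**
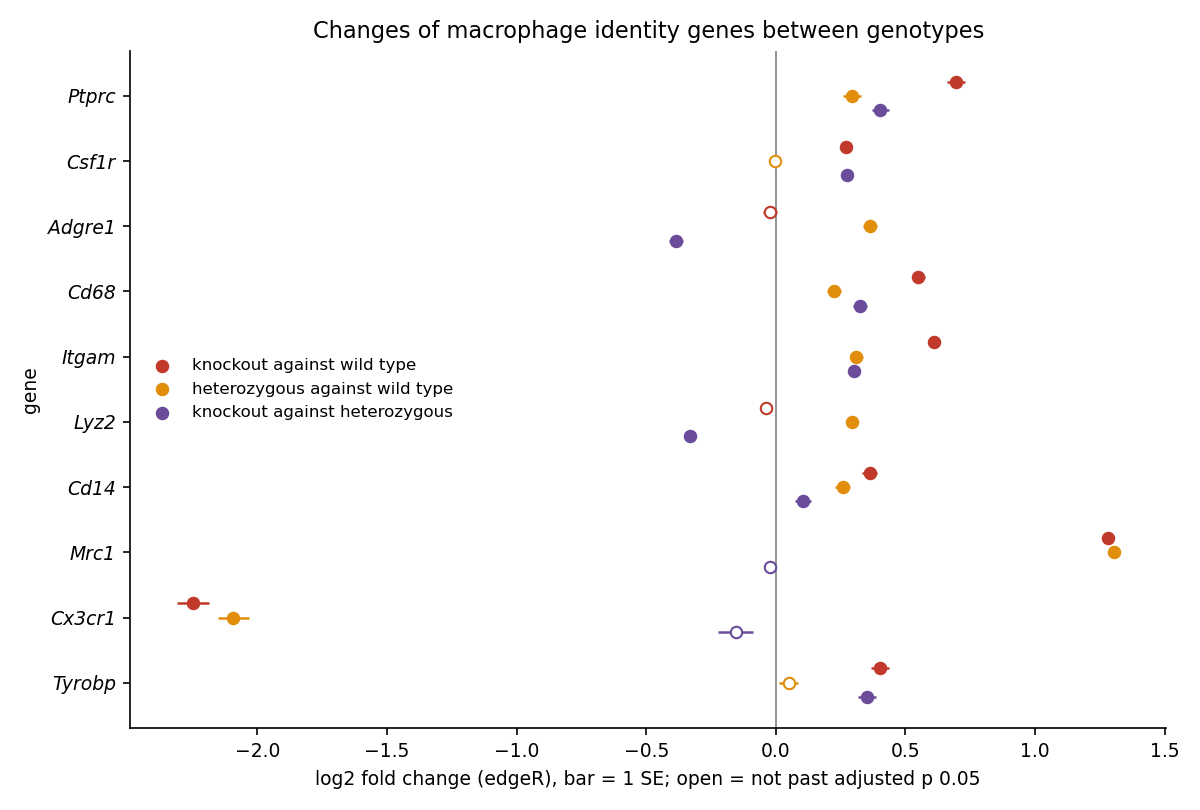
Log2 fold change of each macrophage identity gene (horizontal axis, edgeR; bars are 1 SE) in knockout against wild type, heterozygous against wild type and knockout against heterozygous. Filled points passed adjusted p 0.05 and open points did not. Mrc1 lies at 1.28 and 1.30 and Cx3cr1 at -2.25 and -2.09 against wild type, while the other 8 genes lie between -0.39 and 0.70 in every comparison.

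The 10 genes thus followed more than a single pattern over the 3 genotypes. Libraries of the same genotype differed by a factor of 1.00008 to 1.15 for these genes, the widest being Cx3cr1 in knockout. The groups did not overlap for 9 of 10 genes in knockout against wild type (66.6% of all tested genes), for 9 in heterozygous against wild type (67.0%) and for all 10 in knockout against heterozygous (65.7%). Only Adgre1 in the first comparison and Csf1r in the second overlapped. Mrc1 and Cx3cr1 passed the test with a change of at least 2-fold in both mutant genotypes against wild type, as did 6.82% of all tested genes in knockout and 7.11% in heterozygous. In knockout against heterozygous 0 of the 10 did, and 6.29% of all tested genes. Fitted on the 4 libraries of knockout and wild type alone, with the heterozygous libraries left out, the counts were again 7 higher and 1 lower.

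Genes that are broadly expressed in macrophages and are not among the 10 were higher in knockout. Counts of every gene list stand beside the same shares of all tested genes. Against wild type these were 19.2% higher in knockout and in heterozygous, and 18.9% and 19.7% lower. Of 20 such genes 19 were tested, and all 19 rose in knockout against wild type, with a median log2 fold change of 0.55. Against heterozygous 18 rose and the remaining gene, Laptm5, was at 0.13 (median 0.46), while heterozygous against wild type had 9 higher and 4 lower (median 0.05). Plek, a substrate of protein kinase C in blood cells, had 601 and 607 CPM in knockout, 397 and 394 CPM in heterozygous and 313 and 318 CPM in wild type. Lcp1, the leukocyte actin bundler, was at 0.62 ± 0.02 log2 in knockout against wild type (SE; edgeR adjusted p = 3.78e-26). Ctss, the lysosomal protease cathepsin S, was at 877 and 886 CPM, against 573 and 584 CPM in heterozygous and 832 and 806 CPM in wild type. 

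Set beside that median of 0.55, the identity genes of the knockout differed from it by 0.73 log2 for Mrc1, 0.14 for Ptprc and 0.06 for Itgam, and the other 7 were below it. The difference was -0.0052 for Cd68, -0.15 for Tyrobp, -0.19 for Cd14, -0.28 for Csf1r, -0.58 for Adgre1, -0.59 for Lyz2 and -2.80 for Cx3cr1. These are differences of log2 fold changes, given as a description with no test. In heterozygous, where the median was 0.05, the difference was 1.26 for Mrc1 and -2.14 for Cx3cr1.

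**Figure D3:**
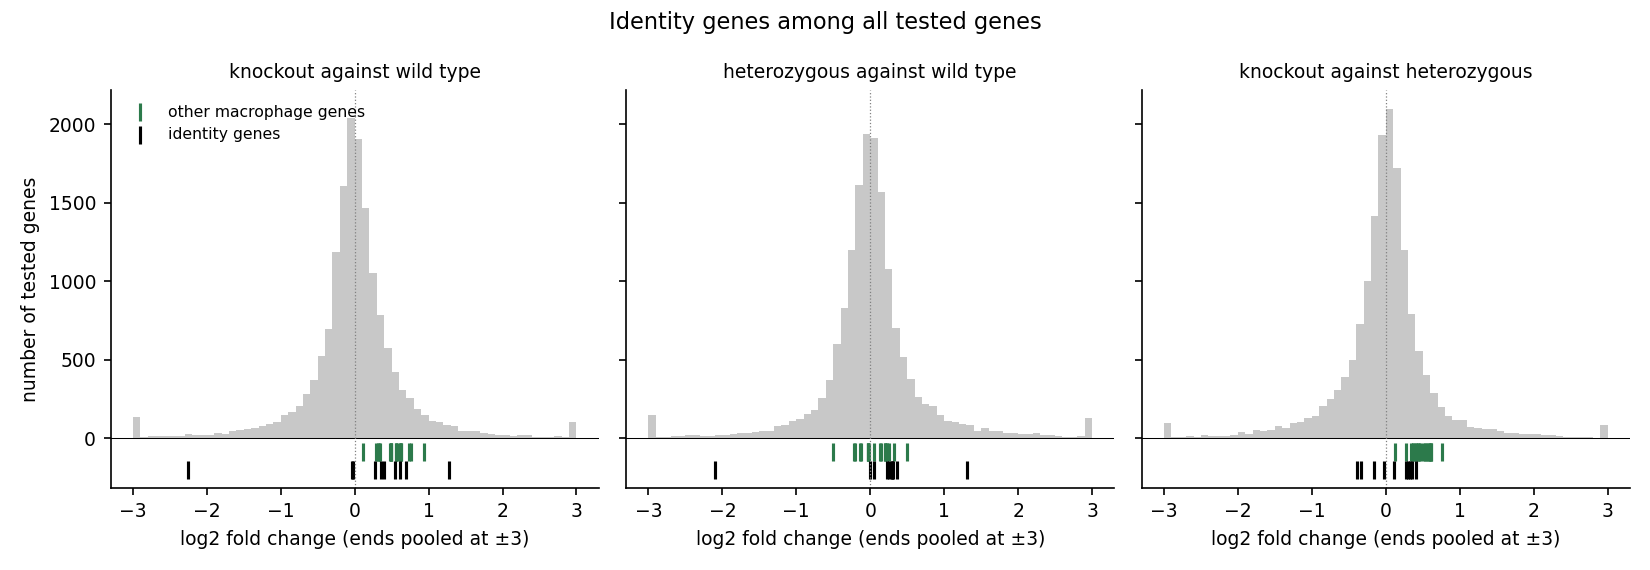
Histogram of log2 fold changes of all 16061 tested genes (grey, number of genes per bin, values beyond 3 in either direction pooled at the ends) in the 3 comparisons, with ticks for the 10 identity genes (black) and for 19 other macrophage genes (green). The green ticks all lie above 0 in knockout against wild type, around their median of 0.55, while 2 black ticks lie far out, at 1.28 for Mrc1 and -2.25 for Cx3cr1.

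The ligand and the transcription factors behind the macrophage programme were described next. Csf1, the main ligand of the Csf1r receptor, had 1361 and 1321 CPM in knockout, 1307 and 1284 CPM in heterozygous and 1102 and 1127 CPM in wild type. It was raised in both mutant genotypes, by 0.27 ± 0.02 and 0.22 ± 0.02 log2 (SE; edgeR adjusted p = 6.23e-14 and 3.13e-11). Il34, the other ligand, was at 5.14 to 8.18 CPM over all libraries and passed in no comparison (edgeR adjusted p = 0.82, 0.117 and 0.0634 for knockout against wild type, heterozygous against wild type and knockout against heterozygous). Spi1 had 211 and 217 CPM in knockout, 171 and 167 CPM in heterozygous and 155 and 148 CPM in wild type, with every step past the test (log2 0.49 ± 0.04 in knockout and 0.15 ± 0.04 in heterozygous against wild type, SE; edgeR adjusted p = 4.37e-15 and 0.000988). In its order over the genotypes Spi1 was like Ptprc, Itgam, Cd68 and Cd14.

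Maf and Cebpa, like Mrc1, were higher in both mutant genotypes than in wild type, and knockout against heterozygous did not pass the test for either (log2 -0.0089 and 0.04; edgeR adjusted p = 0.873 and 0.659). Maf, a transcription factor of resident macrophages, had 264 and 282 CPM in knockout, 279 and 269.8 CPM in heterozygous and 149 and 151 CPM in wild type. It was raised by 0.86 ± 0.03 log2 in knockout and 0.87 ± 0.03 in heterozygous (SE; edgeR adjusted p = 5.29e-24 and 4.2e-24). Cebpa, which encodes a myeloid regulator that fat cells use as well, was raised by 0.87 ± 0.06 and 0.84 ± 0.06 (edgeR adjusted p = 1.43e-16 and 9.11e-16). Over the list of colony-stimulating factor genes and macrophage transcription factors, 12 of 15 tested genes rose and 0 fell in knockout (median log2 0.44), and 10 rose and 1 fell in heterozygous (0.22).

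Around the Tyrobp adaptor, a list of adaptor-coupled receptors and their signalling partners was described, with other adaptors among them. Of its 12 tested genes 10 rose in knockout against wild type, with 0 lower and a median log2 fold change of 0.54. Trem2, a lipid receptor that signals through the adaptor, had 303 and 292 CPM in knockout, 241 and 234 CPM in heterozygous and 218 and 209 CPM in wild type. Syk rose by 0.59 ± 0.04 log2 (SE; edgeR adjusted p = 6.06e-18) and Cd300lb, an activating receptor, by 0.73 (edgeR adjusted p = 3.78e-16). Fcer1g, the related adaptor of Fc receptors, was at 0.32 in knockout and at -0.14 in heterozygous (edgeR adjusted p = 2.45e-12 and 0.000315). In heterozygous the list split into 4 higher and 3 lower (median -0.05).

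A list of leukocyte integrin chains and activators, which holds the Itgam partner Itgb2 but also chains that are not its partners, split as well. In knockout 5 of 8 tested genes rose and 1 fell against wild type (median log2 0.26), and in heterozygous 3 rose and 4 fell (median -0.02). Itgb2, the chain that pairs with CD11b, had 400.1 and 379.6 CPM in knockout, 292 and 296 CPM in heterozygous and 254 and 257 CPM in wild type, the order of Itgam. The gene that fell in knockout was Itgb1, the broadly expressed beta chain, at -0.34 ± 0.02 log2 (SE; edgeR adjusted p = 4.16e-18).

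Toll-like receptors and partners of Cd14 rose in 9 of 14 tested genes in knockout and fell in 1 (median log2 0.43), and rose in 7 and fell in 1 in heterozygous (median 0.28). Tlr4, the lipopolysaccharide receptor, had 115 and 121 CPM in knockout, 89.2 and 94.6 CPM in heterozygous and 61.4 and 64.4 CPM in wild type. It followed the order of Cd14 with wider steps, at 0.91 ± 0.05 log2 in knockout and 0.55 ± 0.05 in heterozygous (SE; edgeR adjusted p = 2.18e-19 and 4.74e-12). Ly96, which encodes the lipopolysaccharide-binding partner MD-2, was at 4.32 to 6.27 CPM and passed in no comparison. Ly86, the gene that fell, was at -0.86 log2 in knockout and at -0.49 in heterozygous.

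Scavenger and Fc receptors, the functional relatives of Mrc1, rose in 13 of 16 tested genes in knockout and fell in 1 (median log2 0.58), and rose in 9 and fell in 3 in heterozygous (median 0.47). Stab1, an endocytic scavenger receptor, had 1317 and 1319.8 CPM in knockout, 1441 and 1409 CPM in heterozygous and 849 and 838 CPM in wild type. Like Mrc1 it was raised in both mutant genotypes, by 0.64 ± 0.02 and 0.76 ± 0.02 log2 (SE; edgeR adjusted p = 3.8e-27 and 1.12e-29). Fcgr2b, the inhibitory Fc receptor, was at 0.60 and 0.73 log2 and Cd36, a receptor for oxidised lipoproteins, at 1.38 and 1.03 log2 in knockout and heterozygous, past the test in both. Axl, a receptor of dying cells that fibroblasts express too, fell by 0.43 and 0.59 on the log2 scale. Stab1, Colec12 and Axl are not restricted to macrophages.

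**Figure D4:**
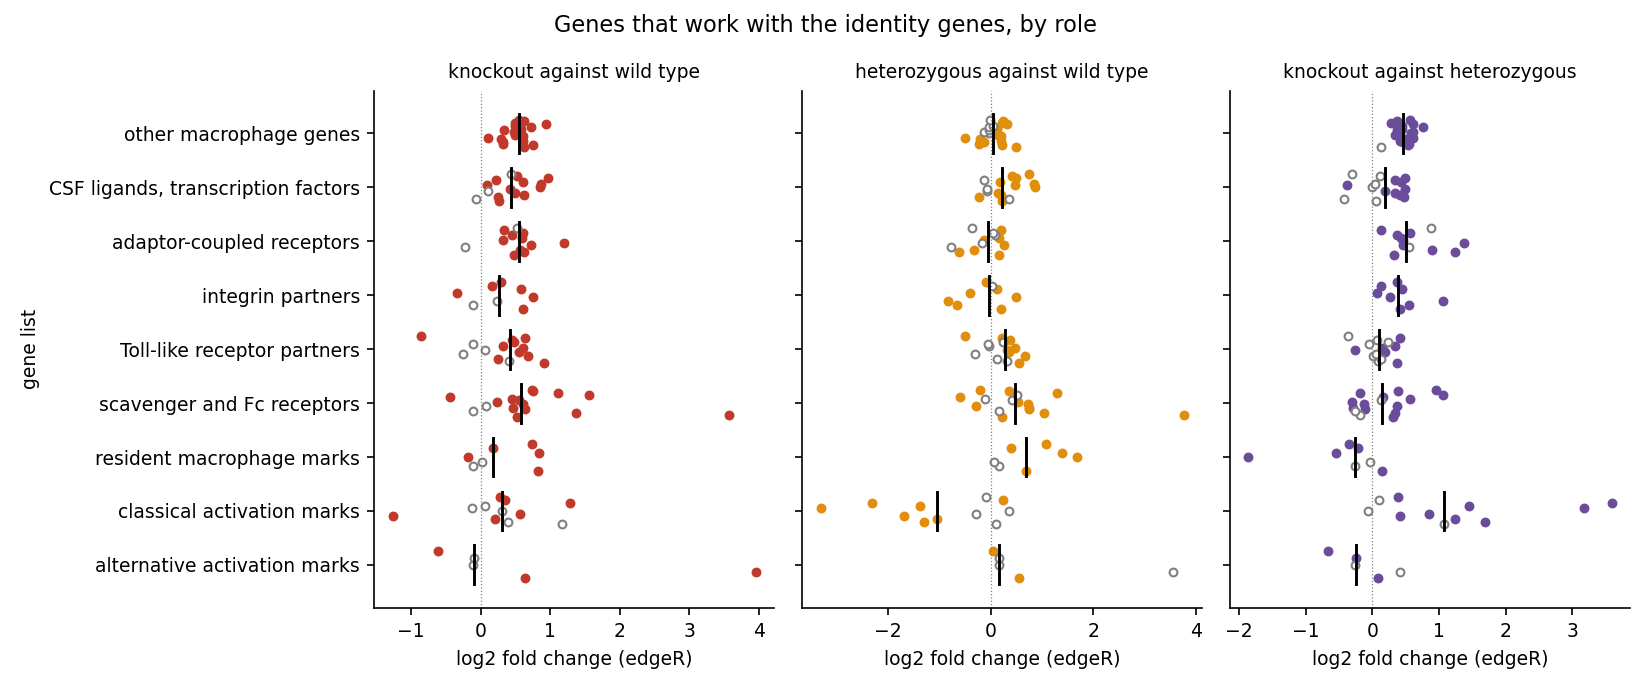
Log2 fold change (horizontal axis, edgeR) of every tested gene in 9 lists of macrophage genes, 1 list per line, in the 3 comparisons. Filled points passed adjusted p 0.05, open points did not, and black bars are list medians. The median of the other macrophage genes is 0.55 in knockout against wild type and 0.05 in heterozygous against wild type, while that of the scavenger and Fc receptors is 0.58 and 0.47.

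Marks of activation and residence did not move as 1 block. Against wild type, 19.2% of all tested genes rose in knockout and in heterozygous, and 18.9% and 19.7% fell. Of 14 marks of alternative activation 5 were tested, since genes such as Arg1, Retnla and Chil3 were at or near 0 in every library. In knockout 2 of those 5 were higher (Il4ra and Clec10a) and 1 lower (Fn1, which fibroblasts express too). Clec10a was near the floor, with 30 and 4 counts in knockout and 2 and 0 in wild type. In heterozygous 2 were higher (Il4ra, and Fn1 at only 0.05 log2) and 0 lower. Il4ra, the interleukin-4 receptor chain, was at 0.64 log2 in knockout and 0.55 in heterozygous (edgeR adjusted p = 5.95e-22 and 1.16e-19). Marks of classical activation split into 5 higher and 1 lower of 11 in knockout (median log2 0.31), and into 1 higher and 6 lower in heterozygous (median -1.03). Cd80, a co-stimulatory ligand, had 25.2 and 23.5 CPM in knockout, 18.9 and 17.7 CPM in heterozygous and 57.9 and 59.2 CPM in wild type. Cd80 was the 1 mark of this list that fell in knockout, and it fell in heterozygous too. Among those that rose in knockout, Ccl5 was at 1.28, Socs3 at 0.36 and Marcksl1 at 0.29 log2. Ccl5 was low, at 4.58 and 4.28 CPM in knockout and 1.70 and 1.94 CPM in wild type. In heterozygous Ccl5 was among those that fell, at -2.31, with Cxcl10 at -1.38 and Ptgs2 at -1.03 log2. Of 7 tested marks of resident macrophages 4 rose and 1 fell in knockout (median 0.18) and 5 rose and 0 fell in heterozygous (median 0.69). Folr2, the folate receptor of resident macrophages, rose by 0.83 log2 in knockout and 0.69 in heterozygous. Gas6 was at 0.84 and 1.38, Sepp1 at 0.73 and 1.08 and Igf1 at 0.18 and 0.39 log2 in turn. F13a1 was at 1.67 log2 in heterozygous against wild type and at -1.86 in knockout against heterozygous. Cd163 had 23 to 35 counts per library and passed in no comparison. Lyve1 and Timd4 had at most 11 and 10 counts in a library and were not tested.

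Microglia and monocytes are the cells best known for Cx3cr1. Of 7 tested microglia marks 3 fell and 1 rose in knockout (median log2 -0.17), and 2 fell and 3 rose in heterozygous (0.17). Tmem119 was at -1.38 log2 in knockout and -0.57 in heterozygous, while P2ry12, at 5.39 CPM in knockout, 6.20 CPM in heterozygous and 6.09 CPM in wild type on average, passed in no comparison, and Siglech had 0 counts in every library. Of 7 tested monocyte marks 3 rose and 3 fell in knockout, and 2 rose and 4 fell in heterozygous. For both lists, the share of all tested genes that rose was 19.2% in knockout and in heterozygous against wild type. The share that fell was 18.9% and 19.7% in turn. Plac8 was at -1.16 and -1.03 log2 and Vcan at -0.80 and -0.38 in knockout and heterozygous against wild type. Itga4 went the other way, at 0.75 and 0.49, and Spn was at 0.74 in knockout. The monocyte mark Ly6c2 averaged at most 0.22 CPM in any genotype.

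Markers of other cells changed beside the identity genes. The summed level of 10 fibroblast markers was 13531 and 13462 CPM in knockout, 29528 and 28814 CPM in heterozygous and 22528 and 22957 CPM in wild type. Those of the 20 other macrophage genes summed to 6043 and 5999 CPM in knockout, 4301 and 4302 CPM in heterozygous and 4313 and 4249 CPM in wild type. The knockout was thus lowest in the summed level of the fibroblast list and highest in that of the other macrophage genes. A sum does not give the direction of each marker. The 10 identity genes summed to 13072 and 12965 CPM in knockout, 14316 and 14309 CPM in heterozygous and 11340 and 11132 CPM in wild type. Lyz2 was the largest part of that sum, at 7039 and 7010, 8845 and 8845, and 7300 and 7123 CPM in turn. The highest mean was in heterozygous for Lyz2, Adgre1 and Mrc1 only. It was in knockout for Ptprc, Csf1r, Cd68, Itgam, Cd14 and Tyrobp, and in wild type for Cx3cr1. Of the 10 fibroblast markers 6 fell and 4 rose in knockout and 1 fell and 8 rose in heterozygous. Col1a1 and Postn, both among the 6 that fell in knockout, were at -0.97 and -1.04 log2 there and at 0.16 and 1.57 in heterozygous. The part of such shifts in the levels of the 10 genes was not tested.

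Markers of lymphocytes, neutrophils and mast cells were low or at 0. Of 13 T, B and natural killer cell markers 8 had 0 counts in every library, Cd3e and Ncr1 among them, and the list summed to between 0.147 and 2.01 CPM. Of 12 neutrophil markers 7 had 0 counts, with S100a9, Ly6g and Mpo among them, and the sum of 17.2 to 25.2 CPM was nearly all Csf3r, which macrophages can express. Mast cell and erythroid markers summed to at most 0.516 and 0.347 CPM. Of 14 dendritic cell markers 5 were tested, Cd209a had 0 counts and Flt3 averaged at most 0.0152 CPM in a genotype. The list holds 3 class II genes, H2-Aa, H2-Ab1 and H2-Eb1, whose low counts are not read as low expression because genes that cells in general use were at 0 in the same region of chromosome 17, so its sum is a lower limit. Osteoclast markers summed to 215 and 213 CPM in knockout, 223 and 208 CPM in heterozygous and 168 and 166 CPM in wild type. Of 7 tested genes 3 were higher in knockout and 5 in heterozygous, where 19.2% of all tested genes rose in each comparison. With so few genes, the counts are a description with no test.

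**Figure D5:**
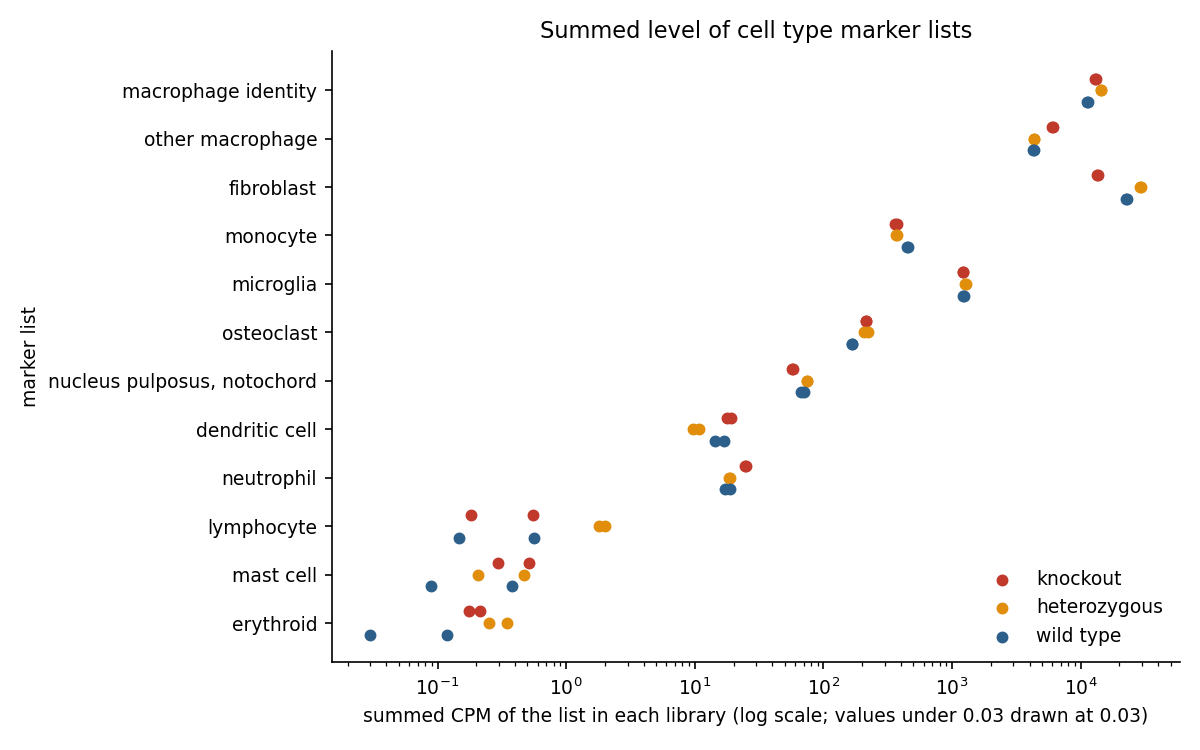
Summed CPM of each marker list in every library (horizontal axis, log scale; sums under 0.03 are drawn at 0.03), with knockout above heterozygous above wild type in each line. The macrophage identity genes sum to 13072 and 12965 CPM in knockout, 14316 and 14309 CPM in heterozygous and 11340 and 11132 CPM in wild type, whereas lymphocyte, mast cell and erythroid markers stay at or under 2.01 CPM. Lyz2 is the largest part of the identity gene sum in every library.

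A count of 0 in this table does not always mean that a gene was silent. Aif1, a widely used macrophage gene, had 0 counts in all 6 libraries, as did Tnf and the class II genes H2-Aa and H2-Eb1. These genes lie in the histocompatibility region of chromosome 17, and so do Bag6 and Prrc2a, which cells in general use and which were listed at 0 too. Prrc2a (chr17:35149076-35164897, GRCm38) and Aif1 (chr17:35170991-35176068) are close neighbours. Their counts are therefore not read as levels, and the summed levels of the other macrophage genes (with Aif1) and of the dendritic cell markers do not cover them. None of the 10 identity genes lies in that region.

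Genes with the profile most like that of each member were found by the root mean square distance between log2 levels centred on each gene's own mean, over 6 libraries and 9704 candidate genes. Closest to Mrc1 were Rspo2 (distance 0.024 log2), Sytl2 (0.063) and Rcan2 (0.068). Closest to Cx3cr1 were Nes (0.13), Rbpsuh-rs3 (0.16) and Zic1 (0.18). For Ptprc they were Xdh, Csf2rb2 and Srgn, for Cd68 Ctsd, Creg1 and Lss, for Itgam Myo1f, Mid1ip1 and C5ar1, and for Csf1r Oxct1, Cdc42se1 and Dgkz, all at distances of 0.0059 to 0.033. Lyz2 was closest to Fbln5, Zmym3 and Jmy, and Tyrobp to Mroh1, Traf6 and Psap. Lrp1 and Lzts3 were among the 3 closest to Adgre1, and Dazap2 and Ucp2 among the 3 closest to Cd14. Among the members themselves, Adgre1 and Lyz2 were nearest to each other (0.032), as were Itgam and Cd68 (0.046) and Csf1r and Tyrobp (0.070), while the nearest member to Cx3cr1 was 1.08 away. This closeness is a description with no test.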

How the data were processed

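Total RNA of passage 2 cells was sequenced, per the labels' protocols, in 6 libraries (3 Chsy3 genotypes, 2 libraries each). The authors deposited raw read counts per gene symbol, 1 column per library, matched by title; they are raw as judged from the values. Per the submitters' processing notes, the build was GRCm38 and a tool was HISAT2 2.0.4. The sources used here do not give how reads were assigned to genes, with which annotation, or whether strand was used. Counts were tested with edgeR 4.0.16 (R 4.3.3): filter by group, TMM scaling, a robust quasi-likelihood fit of all 6 libraries with 3 residual degrees of freedom, and Benjamini-Hochberg adjustment over 16061 genes at 0.05. CPM were computed from TMM-scaled totals, and exon lengths and gene positions come from GENCODE M21 (GRCm38). The procedure was tested on data simulated for knockout against wild type only. Their spread between libraries was smaller than that fitted to the real counts (common biological coefficient of variation 0.0492). The simulation therefore does not show how the calls behave at the real spread.

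The 10 genes and the other lists were chosen with earlier results of these data known; some genes stand in several lists. All 10 were named; in other lists the 4 genes with the smallest p-values per comparison, partners of a member and markers at 0 could be named. Laptm5, Ly86, P2ry12, Arg1, Retnla, Ly6c2, Flt3, H2-Ab1, Lyve1, Timd4, Lyz1, Bag6 and Prrc2a fall outside that rule and were named after their values were seen. Some genes the rule names are not reported here. Libraries of the same genotype differed beyond sampling noise (chi-square per degree of freedom 3.62 to 3.76). Alternatives were RLE factors, library totals alone, DESeq2 1.42.0, no filter, a stricter filter (at least 1 CPM in both libraries of a genotype), a replicate block, only the 4 libraries compared, and leaving out each library.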

Additional observations from a re-analysis of the deposited data

How the results depend on the processing

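Of 390 values of the 10 genes under 13 alternatives, 379 kept their direction and their side of the threshold, 6 changed sign, 4 gained a call and 1 lost it. Those that changed sign were not past the threshold in either fit: Adgre1 in knockout against wild type was at 0.0020 log2 with library totals alone and between -0.043 and 0.0020 with a library left out, Csf1r in heterozygous against wild type was at 0.0065 with RLE factors, 0.0061 with DESeq2 and between -0.015 and 0.0101 with a library left out, and Mrc1 in knockout against heterozygous was at 0.041 with library totals alone. The number of identity genes lower in knockout than in wild type was 2 with RLE factors and with DESeq2, and 1 to 2 with a library left out, where the added gene was Lyz2. The cause was not tested. Calls over all genes stayed within 1.5 times their main count in every alternative. Same-numbered libraries did not deviate together (correlations of -0.019 to 0.018 over genes), so the numbers were not treated as pairs; with the replicate block 6080, 6222 and 5913 genes passed in knockout against wild type, heterozygous against wild type and knockout against heterozygous, against 6111, 6248 and 5951 without it, and no call of the 10 genes changed. With 2 libraries a genotype, an exact permutation test of a single gene cannot go below p = 0.333.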

Other observations

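Gpnmb, a lysosomal glycoprotein of macrophages and osteoclasts, was not in any list and was chosen after its values were seen. It had 1499 and 1496 CPM in knockout, 236 and 242 CPM in heterozygous and 213 and 219 CPM in wild type. The knockout libraries stood apart from the other 4 (log2 2.79 ± 0.03 against wild type, SE; edgeR adjusted p = 3.52e-47), a wider change than that of any of the 10 identity genes. The complement genes C1qa, C1qb and C1qc, which tissue macrophages make in quantity, moved little beside it, at 0.03, 0.15 and 0.20 log2 in knockout against wild type (edgeR adjusted p = 0.406, 1.04e-07 and 1.16e-10). Mpeg1, which encodes the macrophage pore protein perforin-2, was at 0.33 and Grn, which encodes the lysosomal growth factor progranulin, at 0.37 log2 (edgeR adjusted p = 8.17e-18 and 4.3e-19). C1qa, C1qb, C1qc, Mpeg1 and Grn were chosen in the same way.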
